A study of Mus musculus with 18 samples.

Results

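The genes described are 10 components of Wnt signalling in the mouse limb bud: the ligands Wnt2, Wnt3 and Wnt5a, the R-spondins Rspo2 and Rspo4, the receptor Ror2, the secreted inhibitor Dkk1, the nuclear factor Lef1, and the feedback genes Axin2 and Nkd1. They were chosen by symbol with earlier results of these data known, so their counts beside the shares of all genes describe and do not test. All 10 of 10 were listed in each of the 3 deposited tables, which together hold 14686 genes. The study measured RNA by sequencing in 6 groups of 3 libraries, 18 in all, to compare forelimb with hindlimb and hindlimbs with and without the hindlimb transcription factor Pitx1. A first table holds wild type CD1 forelimb buds at e10.5 (embryonic day) and wild type CD1 hindlimb buds at e11.0, stages that the study treats as matched in morphology. A second holds BALB/c hindlimb buds at e11.0, wild type or Pitx1 null, and the last table holds the same genotypes and strain at e11.5. The labels name no allele and no tissue restriction for the Pitx1 null, so a difference in these buds cannot be tied to loss of Pitx1 in a given cell type. The tables were normalized separately, so levels are compared within a table and only set side by side across tables.

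Wnt proteins are secreted signals. In the canonical branch they bind Frizzled receptors with the co-receptors Lrp5 and Lrp6, which stabilises beta-catenin and lets it act with Lef1 and its Tcf relatives on target genes. R-spondins strengthen this branch by protecting Frizzled receptors from the membrane ligases Rnf43 and Znrf3, Dkk1 weakens it by binding Lrp5 and Lrp6, and Axin2 and Nkd1 are targets that dampen it. Wnt5a acts mainly through Ror2 on cell polarity and movement. In the limb bud, Wnt3 and Rspo2 are needed for the apical ectodermal ridge, the ectodermal rim that drives outgrowth, and Wnt5a and Ror2 for elongation and digit formation.

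Lef1 and Pitx1 both act on target genes through short DNA sequences near them. The RefSeq promoter table (GRCm38.p6) held 8 of the 10 genes, in 11 start windows, and the 250 bases before each start were searched on both strands for the letters that Lef1 and its Tcf relatives bind, CTTTGAT and CTTTGAA, and for TAATCC, the core letters that Pitx factors bind. CTTTGAA was found in 1 window, that of Dkk1, and CTTTGAT and TAATCC in 0 of 11. Over all 32851 windows of that length, 4.46% held CTTTGAA, 3.21% CTTTGAT and 6.25% TAATCC. A match is a string of letters and not a measured binding site, and a window without one says nothing about the factor. The stretch around the Dkk1 match is shown because Dkk1 had the largest difference of the 10 in Pitx1 null hindlimbs at e11.5, with the match in capitals. The stretch shown lies on the minus strand at chr19:30549597-30549623, and the match within it, at chr19:30549607-30549613, is 111 to 117 bases before the RefSeq start. The stretch is inside an exon of the GENCODE model of Dkk1. The upstream windows of Axin2 (chr11:108920099-108920348, plus strand) and of Rspo4 (chr2:151842677-151842926, plus strand) are shown for comparison. Axin2 was higher in null hindlimbs together with Dkk1 at e11.5 but not at e11.0. Rspo4 had the largest difference of the 10 between forelimb and hindlimb. Neither window holds any of these letters, and none is in capitals.
Dkk1: cctcccaaagCTTTGAAatcccatccc
Axin2: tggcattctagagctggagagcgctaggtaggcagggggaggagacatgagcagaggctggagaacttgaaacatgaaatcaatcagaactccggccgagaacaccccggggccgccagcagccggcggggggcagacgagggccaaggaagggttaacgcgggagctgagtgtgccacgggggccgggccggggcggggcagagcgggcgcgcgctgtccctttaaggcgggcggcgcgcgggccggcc
Rspo4: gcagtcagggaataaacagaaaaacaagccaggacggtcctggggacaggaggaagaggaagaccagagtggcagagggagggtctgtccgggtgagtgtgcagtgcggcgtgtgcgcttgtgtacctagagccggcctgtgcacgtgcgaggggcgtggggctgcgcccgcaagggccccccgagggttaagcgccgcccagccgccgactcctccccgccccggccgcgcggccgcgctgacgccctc

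In GRCm38 coordinates (GENCODE M21), Wnt2 lies at chr6:17988940-18030585, Wnt3 at chr11:103774150-103817957, Wnt5a at chr14:28504750-28527448 and Rspo2 at chr15:43020794-43170826. Rspo4 lies at chr2:151842927-151874668, Ror2 at chr13:53109312-53286124 and Dkk1 at chr19:30545863-30549665. Lef1 lies at chr3:131110471-131224356, Axin2 at chr11:108920349-108950783 and Nkd1 at chr8:88521354-88594884. All are protein-coding, and values are sums over a gene's exons. Antisense genes share exon bases with Wnt5a (358 bases), Lef1 (1208 bases) and Axin2 (312 bases), and since strand use in counting is not known, reads from those stretches cannot be told apart. The antisense genes that are listed had mean levels of at most 1.71 CPM.

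Levels are CPM, read counts scaled to the same total in every library over the genes listed. The implied depth was 17.4 to 53.6 M reads per library, so 1 read was worth at most 0.0575 CPM and the lowest value of the 10 genes, 0.735 CPM for Wnt2, stood well above it. Pitx1 was at 0.352 ± 0.100 CPM in forelimb and 209 ± 22.5 in hindlimb (SD, n = 3), as the labels say. In the null hindlimbs it was listed at 21.2 ± 1.82 CPM against 124 ± 10.9 at e11.0 and at 79.8 ± 8.31 against 338 ± 23.7 at e11.5, lower than wild type at both stages but not at 0. All 8 of 8 limb mesenchyme markers and all 14 of 14 surface ectoderm markers were listed in each table and above 0 in every library. Replicate 3 stood apart from replicates 1 and 2 in all 6 groups. It came from another sequencing run at e11.0 and at e11.5, where its libraries were also unstranded, while no run is named for it in the CD1 titles. The fit therefore carries a run term beside the group term. Without that term 0 of the 10 genes passed the test in any comparison, with adjusted p of at least 0.0704 for genes called with it, so every call described rests on comparing libraries within a run. Nothing in the labels ties replicates to different litters or pools, and the p-values therefore speak only of spread from library to library, which may be technical. In whole buds, fewer cells of a type and less RNA per cell cannot be told apart.

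**Figure D1:**
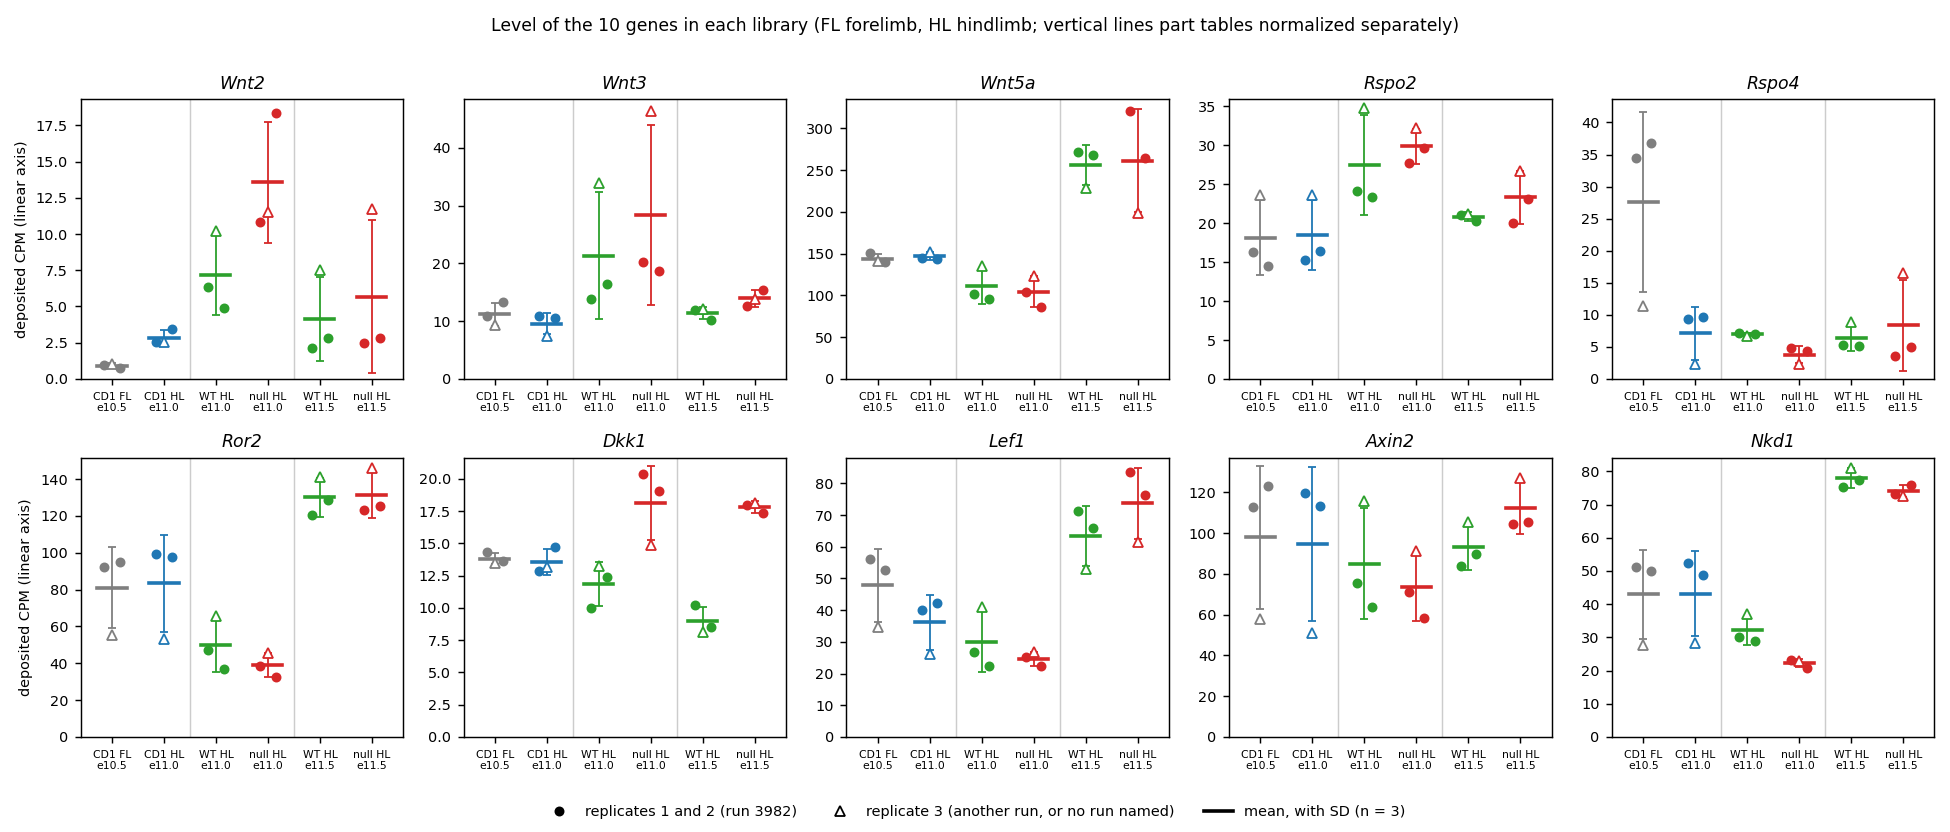
Deposited CPM (vertical axes, linear from 0) of the 10 genes in each of the 18 libraries, by group along the horizontal axes. Filled circles are replicates 1 and 2, open triangles replicate 3, bars the mean and whiskers the SD (n = 3). Rspo4 is higher in CD1 forelimb (34.5, 36.7 and 11.4 CPM in replicates 1, 2 and 3) than in CD1 hindlimb with no overlap. Dkk1 is higher in null than in wild type hindlimbs at both stages with no overlap.

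Per kilobase of exon, Wnt5a and Ror2 were among the most abundant of the 10 genes in each group, together with Axin2. In CD1 hindlimb the level per kilobase was 19.7 ± 6.21 CPM for Ror2, 18.8 ± 0.57 for Wnt5a and 17.2 ± 6.88 for Axin2 (SD, n = 3), an order that lies within the spread. Nkd1 followed at 9.47 ± 2.83 CPM per kilobase. Dkk1 (5.59 ± 0.41), Lef1 (4.11 ± 0.99), Rspo2 (3.61 ± 0.88), Wnt3 (3.12 ± 0.61) and Rspo4 (3.01 ± 1.73) came next, with neighbours again within each other's spread, and Wnt2 was lowest at 1.27 ± 0.23 CPM per kilobase. In wild type hindlimb at e11.5 Wnt5a stood at 32.7 ± 2.996 and Ror2 at 30.7 ± 2.48 CPM per kilobase. There Nkd1 (17.1 ± 0.64) and Axin2 (16.9 ± 1.99) followed, and Wnt2 was again lowest at 1.84 ± 1.29. The rank of Rspo4 differed most between groups. In CD1 forelimb it was at 11.6 ± 5.91 CPM per kilobase, below Ror2, Wnt5a and Axin2 alone, and in CD1 hindlimb it was above Wnt2 alone.

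The first comparison asks how hindlimb buds at e11.0 differ from forelimb buds at e10.5. Of the 10 genes, Wnt2 was higher in hindlimb and Rspo4 and Lef1 were lower. That is 3 of 10, where 5.87% of all 13540 listed genes passed, 2.41% higher and 3.46% lower (limma on log2(CPM + 1), Benjamini-Hochberg adjusted over all listed genes, threshold 0.05). The groups did not overlap for 2 of the 10 (Wnt2 and Rspo4), against 11.2% of all listed genes. Limb and stage differ together in this comparison and cannot be told apart. Among other cells of the bud, 4 of 8 mesenchyme markers were lower and 1 higher in hindlimb, 2 of 14 surface ectoderm and 2 of 6 muscle precursor markers were lower and 1 muscle marker higher, 4 of 8 erythroid markers were higher, and 0 passed of 6 ridge, 10 endothelial, 5 macrophage and 4 nerve markers.

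Wnt2, a ligand with known roles in lung and heart development, was at 0.962, 0.735 and 1.04 CPM in forelimb replicates 1, 2 and 3, and at 2.57, 3.47 and 2.54 CPM in hindlimb. Every hindlimb library was higher than every forelimb library, and the ratio of means was 3.13. On the log2(CPM + 1) scale, which understates the change of low genes, the difference was 1.01 ± 0.13 (SE, adjusted p = 0.00173). Both levels are low for a table whose genes exceed 0.5 CPM in at least 3 libraries.

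Rspo4, an R-spondin best known because its human counterpart is needed for nail formation, was at 34.5, 36.7 and 11.4 CPM in forelimb and at 9.36, 9.66 and 2.39 CPM in hindlimb. The groups did not overlap, and replicate 3 was the lowest library of both. The hindlimb level was 0.271, 0.263 and 0.209 of the forelimb level in the same-numbered pairs. In log2 terms the difference was -1.83 ± 0.07 (adjusted p = 9.71e-07), which ranked 5 by p and 14 by size among the 13540 genes. Rspo2, the other R-spondin of the 10, was at 16.4, 14.4 and 23.6 CPM in forelimb and at 15.3, 16.5 and 23.6 CPM in hindlimb. Its groups overlapped almost fully, with a log2 difference of 0.03 and a 95% interval from -0.13 to 0.19.

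Lef1, the DNA-binding partner of beta-catenin, was at 56.3, 52.6 and 34.7 CPM in forelimb and at 39.9, 42.3 and 26.2 CPM in hindlimb. Within replicates 1 and 2, and within replicate 3, each hindlimb library was lower than each forelimb library, although the groups overlap when the runs are pooled. The ratios within a number were 0.709, 0.805 and 0.754, and the log2 difference was -0.40 ± 0.05 (adjusted p = 0.00222). All 3 calls of this comparison held in each of the 6 fits that left out 1 library.

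Neither feedback gene passed. Axin2 was at 112.7, 123.1 and 58.0 CPM in forelimb and at 119.9, 113 and 51.1 CPM in hindlimb, with a log2 difference of -0.07 (95% interval -0.20 to 0.06, adjusted p = 0.493). Nkd1 was at 51.3, 50.1 and 27.6 CPM against 52.3, 48.8 and 28.4 CPM, a log2 difference of 0.01 (-0.11 to 0.13, adjusted p = 0.925). For both genes replicate 3 was far lower than replicates 1 and 2 in both limbs, by more than any difference between limbs. Whether the Lef1 difference itself differs from those of Axin2 and Nkd1 was not tested.

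The ligand Wnt5a, its receptor Ror2 and the inhibitor Dkk1 differed by at most 0.03 log2 units either way between the limbs. Wnt5a was at 150.4, 139.9 and 140.9 CPM in forelimb and 144.7, 143.9 and 152.0 CPM in hindlimb, with a 95% interval of the log2 difference from -0.08 to 0.14. Ror2 was at 92.5, 94.7 and 55.5 CPM against 99.5, 97.9 and 53.1 CPM (-0.08 to 0.14). Dkk1 was at 14.3, 13.7 and 13.5 CPM against 12.9, 14.7 and 13.1 CPM (-0.20 to 0.14). Wnt3, an ectodermal ligand of the limb ridge, was at 10.97, 13.3 and 9.32 CPM in forelimb and 10.8, 10.48 and 7.43 CPM in hindlimb. It was lower in hindlimb in all 3 same-numbered pairs, as were 19.6% of all listed genes, but its log2 difference of -0.21 ± 0.09 did not pass the test (adjusted p = 0.207).

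Beyond the 10 genes, a list of 93 Wnt pathway genes that includes them had 83 listed in this table, of which 2 were higher and 12 lower in hindlimb, beside the 2.41% and 3.46% of all listed genes. Its median log2 difference was -0.01, beside 0.01 over all listed genes. The other gene that was higher was Dkk3 (0.38 ± 0.08), which did not pass with the replicate number as a block (adjusted p = 0.0503). Those lower beside Rspo4 and Lef1 included the ligands Wnt16 (-0.60 ± 0.11) and Wnt11 (-0.49 ± 0.08), the R-spondin receptor Lgr5 (-0.52 ± 0.12), the Wnt-binding inhibitor Wif1 (-0.46 ± 0.07) and the membrane inhibitor Apcdd1 (-0.56 ± 0.06). The receptor Fzd3 (-0.43 ± 0.05) was lower too. The remaining 4 were Dkk2, Ror1, the target gene Lbh and the receptor Fzd10, at -0.37 to -0.19, and Fzd10 did not pass with the replicate block (adjusted p = 0.0971). The list's count fell to 8 without replicate 3 of either limb and to 9 without hindlimb replicate 1.

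**Figure D2:**
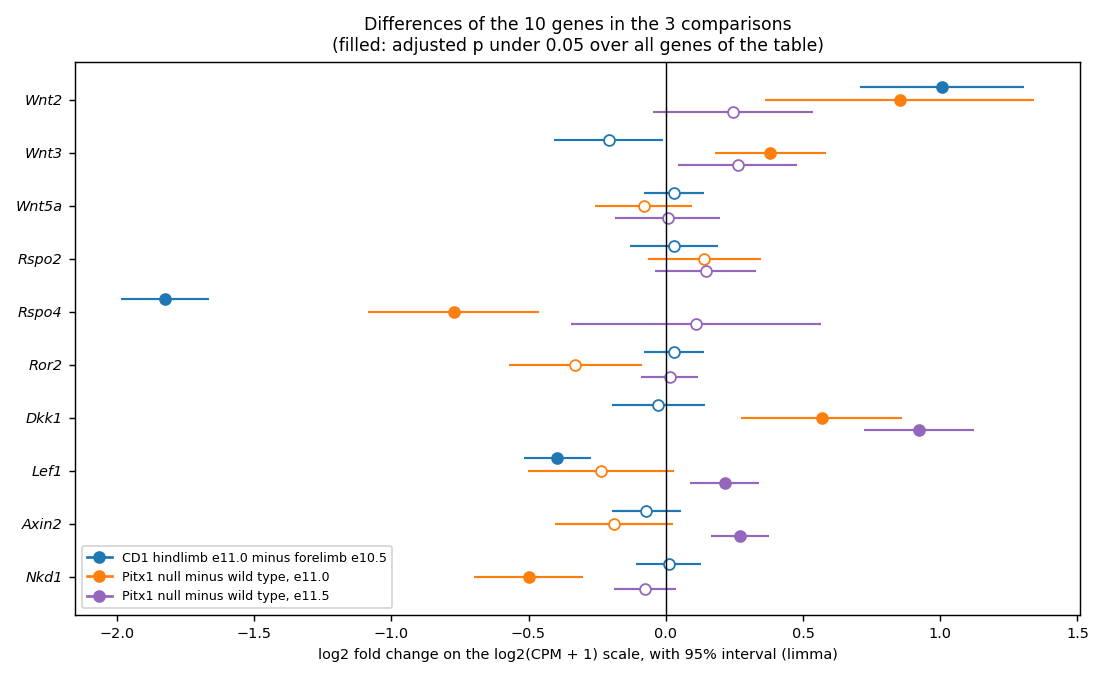
Difference of each of the 10 genes (rows) on the log2(CPM + 1) scale (horizontal axis) in the 3 comparisons, with the 95% interval from limma. Filled points passed the test over all listed genes, and open points did not. Rspo4 lies at -1.83 in hindlimb against forelimb, -0.77 in null against wild type at e11.0 and 0.11 at e11.5, while Dkk1 lies at -0.03, 0.57 and 0.92.

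The second comparison asks what loss of Pitx1 does in the hindlimb at e11.0. In null buds the ligands Wnt2 and Wnt3 and the inhibitor Dkk1 were higher, and Rspo4 and the feedback gene Nkd1 were lower. That is 3 higher and 2 lower of 10, where 13.1% of all 14027 listed genes passed, 4.73% higher and 8.41% lower. Groups without overlap were found for 4 of the 10 (Wnt2, Dkk1, Rspo4 and Nkd1), against 18.5% of all listed genes. Leaving out 1 library gave 0 calls among the 10 without wild type replicate 1 (116 over all genes), 1 without null replicate 2 (232), 2 without replicate 3 of either genotype (193 and 196), 4 without null replicate 1 (1032) and 8 without wild type replicate 2 (5273). Over all genes 664 were higher and 1179 lower, and with TMM, median-ratio or upper-quartile scaling 1067 and 516, 1326 and 403, or 984 and 567, while the 5 calls among the 10 held under each.

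Wnt2 was at 6.38, 4.89 and 10.2 CPM in wild type and at 10.8, 18.4 and 11.51 CPM in null hindlimbs. The groups did not overlap, but the same-numbered ratios ran from 1.12 to 3.76. The log2 difference was 0.85 ± 0.22 (adjusted p = 0.0360). It did not pass without wild type replicate 1 or null replicate 2, nor by DESeq2 on the reads recovered from the CPM values (adjusted p = 0.0703, where 12.9% of all listed genes passed).

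Wnt3 was at 13.8, 16.4 and 33.9 CPM in wild type and at 20.2, 18.6 and 46.4 CPM in null hindlimbs. Each null library was above the wild type library of its number, by 1.47, 1.14 and 1.37 times, while replicate 3 was far above the others in both genotypes. The log2 difference was 0.38 ± 0.09 (adjusted p = 0.0285), and it passed in 1 of the 6 fits with a library left out, that without wild type replicate 2. Surface ectoderm markers moved with it. Of 14 such markers 5 were higher and 0 lower in null buds (Krt18, Krt5, Cdh1, Sfn and Epcam), and their summed level ran from 373 to 900.1 CPM in wild type and from 487 to 1060 CPM in null libraries, again highest in replicate 3. Wnt3 stood at 3.70, 3.65 and 3.77% of that sum in wild type and at 3.99, 3.83 and 4.38% in null libraries. The part of ectoderm content in the Wnt3 difference was not tested.

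Dkk1 was at 9.97, 12.4 and 13.2 CPM in wild type and at 20.4, 19.1 and 14.9 CPM in null hindlimbs. The groups did not overlap, and replicate 3 gave the smallest ratio (1.13, against 2.04 and 1.54 in replicates 1 and 2). On the log2 scale the difference was 0.57 ± 0.13 (adjusted p = 0.0271). It was lost without wild type replicate 1 or null replicate 1 or 2.

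Rspo4 was at 7.15, 7.08 and 6.72 CPM in wild type, its tightest group, and at 4.78, 4.29 and 2.33 CPM in null hindlimbs. No null library reached a wild type one, and the null replicate 3 was the lowest. Its log2 difference was -0.77 ± 0.14 (adjusted p = 0.0119), lost without wild type replicate 1 or replicate 3 of either genotype. In replicates 1 and 2 alone the difference was -0.55.

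Nkd1, which binds Dishevelled and limits the Wnt signal, was at 30.0, 29.1 and 37.1 CPM in wild type and at 23.3, 20.8 and 22.8 CPM in null hindlimbs. The groups did not overlap, and the ratios were 0.777, 0.716 and 0.613. This gave a log2 difference of -0.50 ± 0.09 (adjusted p = 0.0116), which passed with either null replicate 1 or wild type replicate 2 left out and with no other library left out. Nkd2, its relative, was lower as well (-0.44 ± 0.08).

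Ror2, Lef1 and Axin2 were lower in the null library of all 3 same-numbered pairs but did not pass, where 39.2% of all listed genes were lower in all 3 pairs. For each of these genes null replicate 1 was above wild type replicate 2, so the signs depend on the numbering. Ror2 was at 47.1, 37.1 and 65.9 CPM in wild type and at 38.7, 32.5 and 45.4 CPM in null hindlimbs. Its log2 difference was -0.33 ± 0.11 (adjusted p = 0.0665), and with the replicate number as a block it passed (adjusted p = 0.0159, where 24.5% of all listed genes passed). Ror2 also passed by the authors' deposited edgeR test (adjusted p = 0.0402, where 20.6% of all listed genes passed). Lef1 was at 26.9, 22.5 and 40.9 CPM against 25.1, 22.3 and 26.7 CPM (-0.23 ± 0.12, adjusted p = 0.186). Nearly all of that difference came from replicate 3, since the first pairs had ratios of 0.933 and 0.993 and the last 0.653. Axin2 was at 75.6, 63.9 and 115.6 CPM against 70.9, 58.2 and 91.0 CPM (-0.19 ± 0.10, adjusted p = 0.188).

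Wnt5a and Rspo2 had overlapping groups. Wnt5a was at 101.8, 95.6 and 134.8 CPM in wild type and at 104, 86.1 and 123.7 CPM in null hindlimbs, with a 95% interval of the log2 difference from -0.26 to 0.10. Rspo2 was at 24.2, 23.4 and 34.8 CPM against 27.8, 29.6 and 32.3 CPM, with an interval from -0.07 to 0.35.

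Of the 85 pathway genes listed at e11.0, 5 were higher and 11 lower in null hindlimbs, beside the 4.73% and 8.41% of all listed genes, so the share that was higher was near that of all genes. The median log2 difference was -0.09, beside -0.07 over all listed genes. With other library scalings the split was 5 to 6, 6 to 6 or 5 to 7. The count fell to 3 without wild type replicate 1, 4 without null replicate 2 and 5 without replicate 3 of either genotype, and was 43 without wild type replicate 2 and 30 with the replicate block. All 4 ligands that passed were higher: Wnt7a (0.63 ± 0.09), the dorsal ectoderm signal, and Wnt7b (0.31 ± 0.09), beside Wnt2 and Wnt3. Wnt7a passed in each of the 6 fits with a library left out, Wnt2 in 4 of them, and Wnt3 and Wnt7b in 1 each. With the replicate block the ligand Wnt9b also passed upward (0.51, adjusted p = 0.0239) and Wnt5b downward (-0.34, adjusted p = 0.0345). Without the block, the genes that were lower included Wif1 (-0.83 ± 0.11), the nuclear factor Tcf7l2 (-0.69 ± 0.10) and the receptor Fzd4 (-0.50 ± 0.11). The remaining 5 beside Rspo4, Nkd1 and Nkd2 were the planar polarity gene Prickle2, Dkk3, the co-receptor Lrp6, the beta-catenin cofactor Pygo1 and the receptor Fzd2, at -0.44 to -0.25. Of these, Dkk3, Lrp6, Pygo1 and Fzd2 each passed in 1 of the 6 fits with a library left out. They passed with the replicate block but not by edgeR on recovered reads (adjusted p of 0.0676 to 0.113), where 12.4% of all listed genes passed. In the same libraries 9 of 10 endothelial markers, 5 of 6 listed muscle precursor markers and 5 of 8 limb mesenchyme markers were lower. The summed mesenchyme markers ran from 1366 to 1634 CPM in wild type and from 1022 to 1325 CPM in null libraries, and the summed endothelial markers from 204 to 286 and from 113 to 214 CPM. The surface ectoderm markers, given beside Wnt3, were 5 higher and 0 lower of 14 in the libraries in which the 4 ligands were higher. Of the other markers, Sp8 alone of 8 ridge genes and Hbb-bs alone of 9 erythroid genes were higher, and 0 passed of 6 macrophage and 4 nerve markers. The part of these cell types in the differences was not tested.

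The last comparison repeats the previous one at the later stage, e11.5. Here Dkk1, Axin2 and Lef1 were higher in null hindlimbs and 0 of the 10 were lower. That is 3 of 10, where 10.8% of all 13478 listed genes passed, 2.83% higher and 7.96% lower. Null and wild type libraries were fully apart for 2 of the 10 (Wnt3 and Dkk1), against 16.5% of all listed genes. Over all genes 382 were higher and 1073 lower, or 650 and 925 with TMM and 743 and 919 with median-ratio scaling, with the same 3 calls among the 10.

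Dkk1 was at 10.2, 8.54 and 8.15 CPM in wild type and at 17.96, 17.3 and 18.2 CPM in null hindlimbs. The null libraries lay close together, well above every wild type library, with ratios of 1.76, 2.03 and 2.23. On the log2 scale this was 0.92 ± 0.09 (adjusted p = 0.000911), which ranked 36 by p among the 13478 genes and held in each of the 6 fits that left out 1 library. The mean level of the inhibitor in null hindlimbs was 18.1 ± 2.88 CPM at e11.0 and 17.8 ± 0.44 CPM at e11.5. In wild type it was 11.9 ± 1.69 and 8.97 ± 1.10 CPM (SD, n = 3). These values come from tables normalized separately and from different library preparations (ribosomal depletion at e11.0, mRNA enrichment at e11.5), so levels are not compared between the stages.

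Axin2 was at 84.1, 89.5 and 105.2 CPM in wild type and at 104.4, 105.2 and 127 CPM in null hindlimbs. The pooled groups overlap, because wild type replicate 3 reached the null replicates 1 and 2, but within each run every null library was the higher. The ratios were 1.24, 1.18 and 1.21, and the log2 difference was 0.27 ± 0.05 (adjusted p = 0.00874). It was lost without null replicate 2 (adjusted p = 0.0541).

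Lef1 was at 71.2, 66.0 and 52.9 CPM in wild type and at 83.5, 76.2 and 61.5 CPM in null hindlimbs. Its pattern was that of Axin2, with ratios of 1.17, 1.16 and 1.16 in the pairs and pooled groups that overlap. The log2 difference was 0.22 ± 0.06 (adjusted p = 0.0421). Although the size held, at 0.18 to 0.25, the call was lost whichever library was left out.

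The other members did not pass. Wnt3 was at 11.99, 10.3 and 12.03 CPM in wild type and at 12.6, 15.4 and 13.8 CPM in null hindlimbs, higher in every null library than in any wild type one (0.26 ± 0.10, adjusted p = 0.108). By the authors' deposited edgeR test Wnt3 did pass (adjusted p = 0.0223, where 19.6% of all listed genes passed). At this stage 0 of the 14 surface ectoderm markers passed, their sums ran from 382 to 432 CPM and from 414 to 526 CPM, and Wnt3 stood at 2.69 to 2.82% and 2.69 to 3.32% of them. Wnt2 was at 2.14, 2.81 and 7.49 CPM against 2.48, 2.80 and 11.8 CPM, so replicate 3 was far higher in both genotypes (0.24 ± 0.13, adjusted p = 0.240).

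Rspo4 was at 5.35, 5.09 and 8.83 CPM in wild type and at 3.57, 4.97 and 16.5 CPM in null hindlimbs at e11.5. The runs went opposite ways: the ratio was 0.668 and 0.978 in replicates 1 and 2 and 1.87 in replicate 3, the unstranded libraries. The annotated antisense gene of Rspo4 shares 0 exon bases with it, and why the runs differed was not tested. Pooled, the log2 difference was 0.11 ± 0.20 (adjusted p = 0.749), and in replicates 1 and 2 alone it was -0.25. Nkd1 was at 75.4, 77.5 and 81.2 CPM against 73.3, 76.0 and 72.6 CPM, a log2 difference of -0.08 with a 95% interval from -0.19 to 0.04. Ror2 was at 120.4, 128.6 and 141 CPM against 123.3, 125.1 and 146 CPM (-0.09 to 0.12). Wnt5a was at 271, 268 and 229 CPM against 321, 264 and 199 CPM (-0.18 to 0.20), and Rspo2 at 21.1, 20.2 and 21.3 CPM against 20.04, 23.1 and 26.8 CPM (-0.04 to 0.33).

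**Figure D3:**
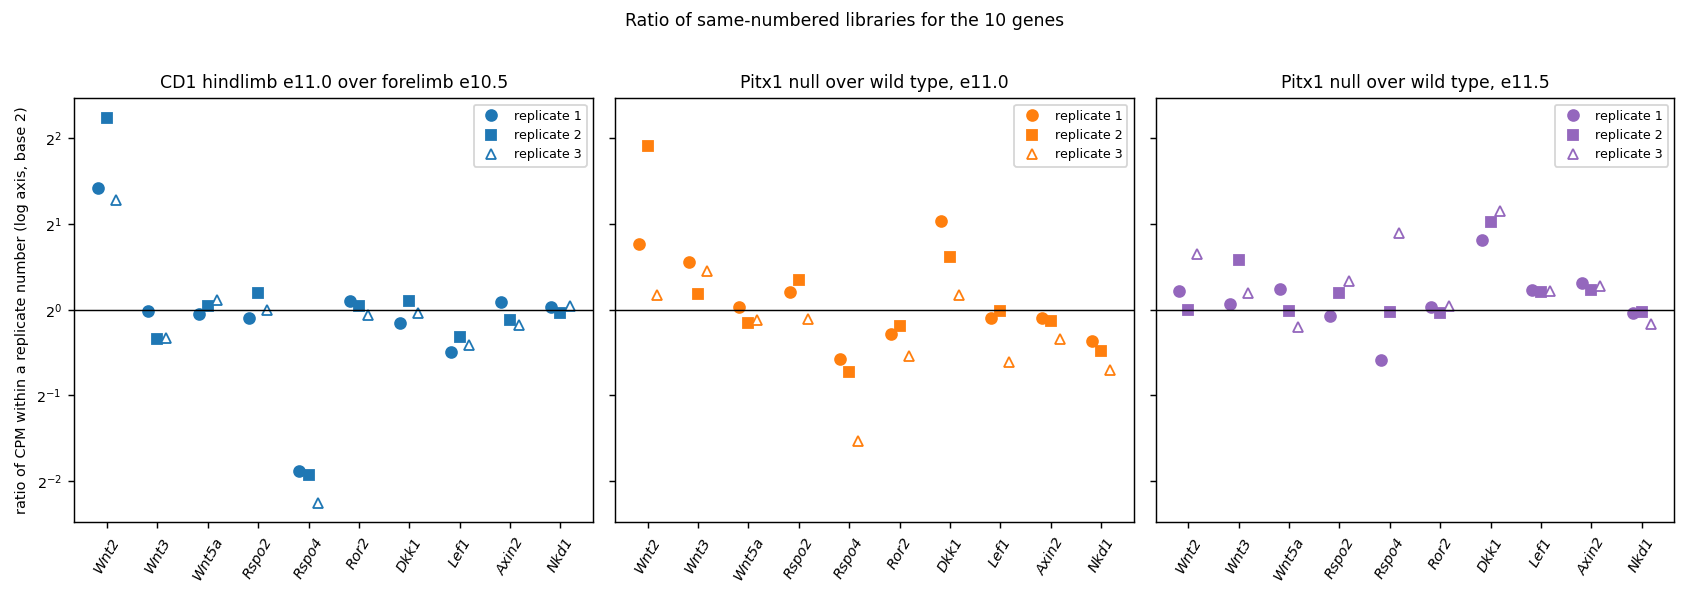
Ratio of CPM between same-numbered libraries of the compared groups (vertical axes, logarithmic, base 2) for the 10 genes (horizontal axes), with 1 panel per comparison. Circles, squares and open triangles are replicates 1, 2 and 3, and the line marks a ratio of 1. Axin2 and Lef1 lie below the line in all 3 pairs at e11.0 and above it in all 3 at e11.5, and Rspo4 at e11.5 spreads from 0.668 to 1.87. Pairs follow the numbers in the titles. At e11.0 the null and wild type libraries of Axin2 and Lef1 overlap within replicates 1 and 2.

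Of the 86 pathway genes listed at e11.5, 7 were higher and 11 lower in null hindlimbs, beside the 2.83% and 7.96% of all listed genes, with a median log2 difference of -0.02, the same as over all listed genes. Without the 10 members, 4 were higher and 11 lower of 76, and the median was -0.07. Higher beside the 3 members were Wnt7a (0.59 ± 0.08), Apcdd1, Fzd10 and Notum, the secreted enzyme that inactivates Wnt proteins, which did not pass with the replicate block (adjusted p = 0.0524). Lower were the receptor Fzd8 (-0.83 ± 0.08), the Wnt-binding inhibitors Sfrp2 (-0.82 ± 0.07) and Wif1 (-0.80 ± 0.14), Tcf7l2 (-0.77 ± 0.11), Dkk3 (-0.51 ± 0.12) and the receptor Fzd9 (-0.46 ± 0.11), listed in this table alone. The inhibitor Sostdc1 was lower too (-0.46 ± 0.10). The 4 others that were lower were Fzd4, Wnt11, the target gene Sp5 and the receptor Ptk7, at -0.44 to -0.23. Secreted inhibitors thus moved in both directions, 2 higher and 4 lower of 12 genes under that role. The role also takes in the membrane receptors of Dkk proteins, Kremen1 and Kremen2, which did not pass. The list's count fell to 8 without null replicate 2 and to 11 without replicate 3 of either genotype. All 8 of 8 muscle precursor markers were lower in these null libraries, with sums of 219 to 245 CPM in wild type and 134 to 164 CPM in null, and 2 of 8 mesenchyme markers were higher. Lower were 2 of 10 endothelial, 2 of 7 macrophage and 2 of 5 nerve markers, of the 8 ridge genes Sp8 was higher and Fgf9 lower, and 0 of 9 erythroid genes passed. The part of these cell types was not tested.

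**Figure D4:**
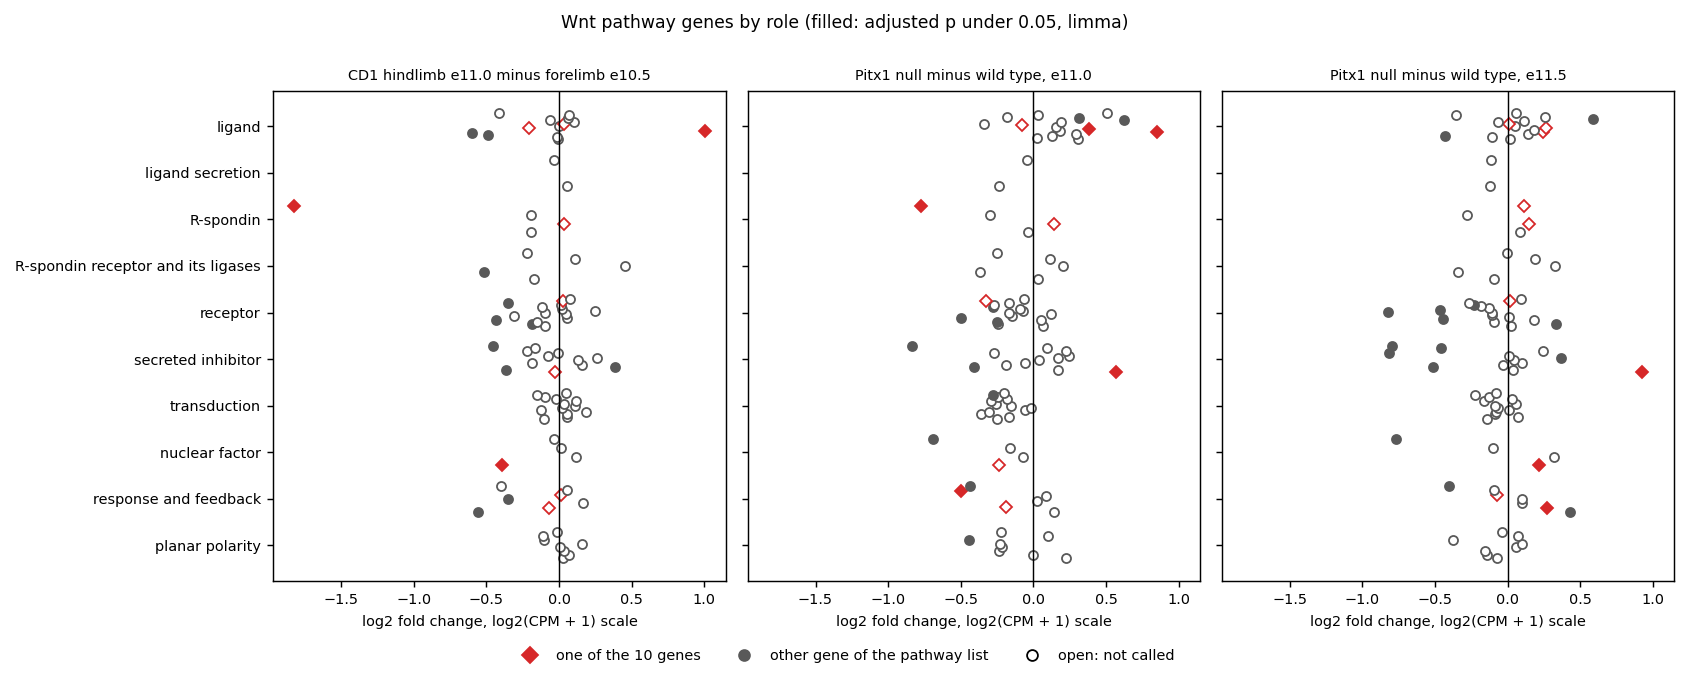
Differences of the listed Wnt pathway genes (horizontal axes, log2(CPM + 1) scale) by role (rows) in the 3 comparisons. Diamonds are the 10 genes and circles the rest of the list, filled where the gene passed the test. At e11.0 all 4 filled ligands lie to the right, and at e11.5 filled secreted inhibitors lie on both sides, 2 higher and 4 lower.

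Whether the effect of losing Pitx1 differed between the stages was tested directly, as the difference of the log2 fold changes (e11.5 minus e11.0) over the 12935 genes listed in both tables. Of the 10 genes 0 passed, where 0.363% of all genes did (47). At an unadjusted p under 0.05 there were 5 of the 10, beside 20.6% of all genes. All 5 had a positive difference: Nkd1 0.42 ± 0.10 (adjusted p = 0.0917), Axin2 0.46 ± 0.12 (adjusted p = 0.105), Rspo4 0.88 ± 0.27 (adjusted p = 0.139), Lef1 0.45 ± 0.15 (adjusted p = 0.148) and Ror2 0.34 ± 0.13 (adjusted p = 0.182). The median difference over all genes was 0.049, or -0.0051 with median-ratio scaling. Medians of the marker lists ran from -0.36 (erythroid) to 0.30 (mesenchyme) and 0.35 (endothelium). With the replicate number as a block, Axin2 passed (adjusted p = 0.0300) and the other 9 did not, where 1.62% of all genes passed. Without wild type replicate 2 of e11.0 all 5 passed, as did 2567 genes in all. Wnt2, Wnt3, Rspo4 and Nkd1, which passed at e11.0 and not at e11.5, are thus not shown to differ between the stages. Library preparation differed between the stages too (ribosomal depletion at e11.0, mRNA enrichment at e11.5), and its part cannot be told apart from stage. Dkk1, higher at both stages, had a difference of 0.35 ± 0.17 (adjusted p = 0.262). Of the 8 limb mesenchyme markers 3 passed upward in the same fit, and of the 14 surface ectoderm markers 0. In the rest of the pathway list, Fzd10 passed upward (0.58 ± 0.11, adjusted p = 0.0491) and Fzd8 downward (-0.75 ± 0.13, adjusted p = 0.0234) among 84 genes.

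Axin2 and Lef1 were lower in the null library of all 3 same-numbered pairs at e11.0, where neither passed the test. They were higher in all 3 at e11.5, where both passed. The e11.0 signs depend on the numbering, which comes from the titles alone. Null replicate 1 was there above wild type replicate 2 for Lef1 (25.1 and 22.5 CPM) and for Axin2 (70.9 and 63.9 CPM). At e11.5 each null library was above every wild type library of its run. Among all listed genes 39.2% were lower in all 3 pairs at e11.0 and 23.4% higher in all 3 at e11.5, and 6.36% of the 12935 genes in both tables did both. Neither gene's difference between the stages passed, as given above, and the lower Lef1 level at e11.0 came mainly from replicate 3.

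The genes whose levels ran most like those of 6 called members were found over the 18 libraries, each taken as its deviation from the mean of its table and run. Points share libraries, runs and contrasts, so the correlations among 12675 genes are descriptions. For Rspo4 the closest were Cyth3 (r = 0.935) and Hoxd9 (r = 0.931), and for Wnt2 they were Galnt16 (r = 0.898) and Masp1 (r = 0.895). Wnt3 ran with Pdgfa (r = 0.927) and Cacna1b (r = 0.925), with the epidermal marker Sfn next (r = 0.919). Lef1 ran with Bach2 (r = 0.908) and Dnmt3b (r = 0.906), Nkd1 with Arnt2 and Map2k6 (both r = 0.956), and Axin2 with Usp7 (r = 0.909) and the Wnt receptor Fzd10 (r = 0.907). Among the 10 genes themselves, the closest pairs were Ror2 with Nkd1 (r = 0.84) and Rspo4 with Lef1 (r = 0.79). Each of these had closer genes outside the 10, up to r = 0.983 for Ror2. The most opposed pairs were Wnt2 with Rspo4 (r = -0.68) and Wnt3 with Nkd1 (r = -0.67).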

How the data were processed

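The authors deposited 3 tables, each holding 6 libraries of 1 comparison. Reads were aligned with STAR, counted with featureCounts on GRCm38 (mm10) and analysed with edgeR, per the submitters' processing notes. Versions and strand use are not given in the sources used here. The authors deposited levels as CPM, which sum to the same total in each library. The authors' deposited log2 fold change, likelihood-ratio score, p-value and adjusted p-value stand beside them, per the file headers. Each gene in a table is above 0.5 CPM in 3 or more of its libraries.

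All values (100%) were whole multiples of what 1 read is worth, to within 0.01 of a read. Depths and intervals that follow from this cover counting error only.

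limma 3.58.1 (R 4.3.3, mean-dependent prior) was run on each table by itself on log2(CPM + 1), with terms for group and run (that of replicates 1 and 2 against that of replicate 3), 3 residual degrees of freedom, two-sided. The difference between stages came from 1 fit of both Pitx1 tables with stage and run within stage. As the deposited values are CPM, count tests were used only as alternatives, on recovered reads (edgeR 4.0.16 quasi-likelihood, DESeq2 1.42.0), which called 881 and 830 genes between limbs, 1734 and 1804 in the earlier Pitx1 table and 1630 and 1846 in the later. Other alternatives were pseudocounts, a level filter, scalings, no run term, a replicate block, replicates 1 and 2 alone and leaving out each library.

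Libraries with the same number in the titles moved alike about their group means. For replicates 1, 2 and 3 the correlations across genes were 0.686, 0.798 and 0.939 between the limbs, 0.662, 0.637 and 0.855 for e11.0 and 0.733, 0.83 and 0.914 for e11.5. All exceed 0.1, and the numbers were taken as pairs for the same-numbered ratios and the replicate block. The main fit carries a term for run and none for pairs. Libraries of replicates 1 and 2 with different numbers correlated as well, at 0.748 and 0.852 between the limbs, 0.529 and 0.407 for e11.0 and 0.632 and 0.627 for e11.5. These exceed 0.1 too, so that threshold does not tell pairs from other libraries of the run. Between the limbs the number does not tell pairs apart within the run at all.

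The 10 genes and all lists were chosen with earlier results of these data known. The 10 genes are given in every comparison, and of the pathway list up to 8 called genes of largest change by rule. Genes of that list named beyond these, and Notum, Apcdd1 at e11.5, and Sfn as a like gene, were chosen after their values were seen. Markers are fixed lists (mesenchyme, ectoderm, ridge, endothelium, macrophage, muscle, nerve, erythroid). The genes most like Dkk1 are not reported here.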

Additional observations from a re-analysis of the deposited data

How the results depend on the processing

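The calls among the 10 genes rest on 3 libraries a group and, in each comparison, on the run term. At 17.4 M reads or more per library, 1 read was worth at most 0.0575 CPM, which limits precision most for Wnt2. Without the run term 13 genes passed between the limbs, 5 at e11.0, 11 at e11.5 and 0 in the difference between stages, with 0 of the 10 in each and 0 of the pathway list in the limb, e11.0 and e11.5 comparisons. With replicates 1 and 2 alone, 471 genes passed between the limbs (8 of the list), 199 at e11.0 (2 of the 10, 5 of the list), 483 at e11.5 (11 of the list) and 18 between stages. With the replicate block, 3442 genes passed at e11.0 (30 of the list) and 210 between stages (1 of the 10), and besides Ror2 at e11.0 and Axin2 between stages it changed no call of the 10 genes. In the rest of the list the block ended the calls of Dkk3 and Fzd10 between the limbs and of Notum at e11.5, and added Ror1 at e11.5 and Sfrp2 between stages. At e11.0 it ended 0 calls of the list and added 14, with Ror2 and the ligands Wnt9b (higher) and Wnt5b (lower) among them. The authors' deposited table called 1689, 2895 and 2644 genes in the 3 comparisons (28 of the list at e11.5), and upper-quartile scaling 72 between stages. Of the 10 genes the authors' test also called Ror2 at e11.0 and Wnt3 at e11.5. In each such case the cause was not tested.

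Leaving out 1 library gave 394 to 1191 genes between the limbs (8 to 20 of the list, 3 of the 10 in each fit), 116 to 5273 at e11.0 (3 to 43, and 0 to 8 of the 10), 433 to 2627 at e11.5 (8 to 25, and 1 to 2 of the 10) and 10 to 2567 between stages (0 to 5 of the 10). Where replicate 3 of 1 group is left out, the run term absorbs that of the other, and where replicate 1 or 2 is left out, the lone library of that run is assumed to vary like the rest. All calls among the 10 genes kept their direction under every alternative run, pseudocounts of 0.5 and 0.25, a mean of at least 1 CPM, 3 scalings, edgeR and DESeq2 included.

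Signs changed only for genes that did not pass. Between the limbs, Wnt5a was at -0.0078 and Nkd1 at -0.0041 in replicates 1 and 2 alone, and leaving out 1 library gave -0.0078 to 0.072 for Wnt5a, -0.021 to 0.075 for Rspo2, -0.079 to 0.023 for Dkk1 and -0.012 to 0.043 for Nkd1. At e11.0 Wnt5a was at 0.016 with median-ratio scaling and 0.019 by DESeq2. At e11.5 Rspo4 was at -0.25 and Ror2 at -0.0026 in replicates 1 and 2 alone, with 1 library left out Wnt5a ran from -0.10 to 0.11, Rspo4 from -0.25 to 0.32 and Ror2 from -0.0084 to 0.046. Between stages, Rspo2 was at -0.031 with TMM, -0.052 with median-ratio and -0.053 with upper-quartile scaling and -0.20 in replicates 1 and 2 alone, and with 1 library left out it ran from -0.12 to 0.087 and Wnt5a from -0.023 to 0.19. Fits by edgeR and DESeq2 were not run for the difference between stages.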
